A study of Mus musculus with 6 samples.

Results

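The genes described here carry tryptophan through kynurenine to NAD in mouse hepatocytes. They were chosen by name as 10 genes of the route, and 9 of them had a named row among the 15133 named genes of the table. Those 9 were Tdo2, Ido2, Afmid, Kmo, Kynu, Haao, Qprt, Nadsyn1 and Nnmt, and Acmsd was not analysed here. Gene expression was measured on 6 arrays, 3 per group and 1 per sample. Primary hepatocytes of male C57Bl6 mice were kept between collagen layers and received either 10 µM cyclosporin A (CsA), a calcineurin inhibitor used to suppress immunity, or 0.5% DMSO, the vehicle. Exposure lasted 48 hours in serum-free medium that, in both groups, held insulin (0.5 U/ml), glucagon (7 ng/ml), 7.5 µg/ml of the glucocorticoid hydrocortisone, penicillin and streptomycin. The labels do not say whether the CsA wells contained DMSO as well, and they give 48 hours both as the exposure and as the time of harvest after isolation. Each experiment came from a different animal, per the labels.

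Liver is the main site of tryptophan breakdown in mammals. Tryptophan 2,3-dioxygenase (Tdo2) opens the indole ring, formamidase (Afmid) frees kynurenine, and kynurenine 3-monooxygenase (Kmo), kynureninase (Kynu) and 3-hydroxyanthranilate dioxygenase (Haao) carry it to a semialdehyde. That semialdehyde closes on its own to quinolinate, or it is removed by the enzyme that Acmsd encodes, towards complete oxidation. Qprt, an adenylyltransferase (Nmnat1, Nmnat2 or Nmnat3) and Nadsyn1 turn quinolinate into NAD. Nnmt methylates nicotinamide, the fragment left when NAD is consumed, and so draws it out of the cycle.

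RefSeq promoter windows in GRCm38.p6, from 250 bases before to 50 after the start site, were found for 6 of the 9 measured genes (Tdo2, Afmid, Kmo, Haao, Qprt and Nadsyn1). All 6 of these genes had lower mRNAs in CsA. The windows of Afmid, Qprt and Nadsyn1 held none of the searched motifs, and the 3 windows that held any are shown. They lie at chr3:81975679-81975978 on the minus strand (Tdo2), chr1:175631943-175632242 on the plus strand (Kmo) and chr17:83846741-83847040 on the minus strand (Haao). Each is written 5′ to 3′ along the gene, and capitals mark motif matches on either strand.
Tdo2: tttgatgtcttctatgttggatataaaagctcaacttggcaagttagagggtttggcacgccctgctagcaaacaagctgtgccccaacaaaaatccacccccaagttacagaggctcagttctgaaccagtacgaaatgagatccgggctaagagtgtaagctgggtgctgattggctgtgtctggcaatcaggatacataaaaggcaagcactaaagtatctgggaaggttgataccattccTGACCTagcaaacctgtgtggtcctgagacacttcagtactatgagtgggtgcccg
Kmo: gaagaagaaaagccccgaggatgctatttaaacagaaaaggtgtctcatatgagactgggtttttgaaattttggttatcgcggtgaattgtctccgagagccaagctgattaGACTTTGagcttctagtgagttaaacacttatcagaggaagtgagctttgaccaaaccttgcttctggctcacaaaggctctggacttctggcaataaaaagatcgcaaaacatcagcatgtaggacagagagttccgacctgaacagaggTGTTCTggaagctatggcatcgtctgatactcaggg
Haao: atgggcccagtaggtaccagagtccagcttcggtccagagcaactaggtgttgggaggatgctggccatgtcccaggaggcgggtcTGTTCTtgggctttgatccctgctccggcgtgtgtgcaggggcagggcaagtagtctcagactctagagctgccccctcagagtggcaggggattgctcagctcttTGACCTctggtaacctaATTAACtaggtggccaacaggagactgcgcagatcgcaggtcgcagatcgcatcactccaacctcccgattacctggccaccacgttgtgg
The Kmo window held CAAAGTC, part of the sequence that HNF4 factors bind, on the opposite strand from position -137, a motif in 4.44% of all 32851 windows. The nuclear receptor half-site AGGTCA stood on the opposite strand from -6 in Tdo2 and from -58 in Haao, and 16.3% of all windows hold it. TGTTCT, a half-site of the glucocorticoid receptor, began at 15 in Kmo and at -164 in Haao (19% of all windows), and GTTAAT, a half-site of HNF1, lay on the opposite strand from -41 in Haao (7.1%). TTGCAA, of the type bound by C/EBP factors (6.23%), and TGATGCA, of the ATF4 and C/EBP composite type (3.15%), were in 0 of the 6 windows. Both strands were searched, no match overlapped another, and a match describes these letters and is not evidence of binding.

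After CsA, the 9 measured genes of the route read lower, from Tdo2 at its entry to Nadsyn1 at its end. The adenylyltransferase genes that act between Qprt and Nadsyn1, given below, did not read lower. Of the 9 measured genes 7 fell, 0 rose and 2 (Ido2 and Nnmt) did not pass, against 9.05% of all 16331 rows that fell (limma, Benjamini-Hochberg adjusted p under 0.05 over all rows). Kmo, Kynu, Tdo2, Haao and Qprt fell at least 2-fold, as did 3.61% of all rows. All 3 CsA arrays lay below all 3 DMSO arrays for each of the 9 genes, which held for 15.3% of all rows, while the reverse order held for 19.8%. The median difference of the 9 genes was -1.004 on the log2 scale, and that of all rows was 0.035. All these cultures are bulk samples, in which fewer hepatocytes and less RNA per hepatocyte cannot be told apart. The marker genes of hepatocytes moved with the route. Of 8 measured, 6 fell (Ttr, Apoa1, Apoa2, Apob, Serpina1a and Fgb), and their summed linear signal, given as log2, was 17.08 to 17.18 in DMSO and 16.41 to 16.53 in CsA. Albumin (Alb) stood at 15.28 to 15.30 in DMSO and 15.16 to 15.24 in CsA, so the labelled cell type was borne out in every array. The part of a change in hepatocyte content in the results on the route was not tested.

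**Figure D1:**
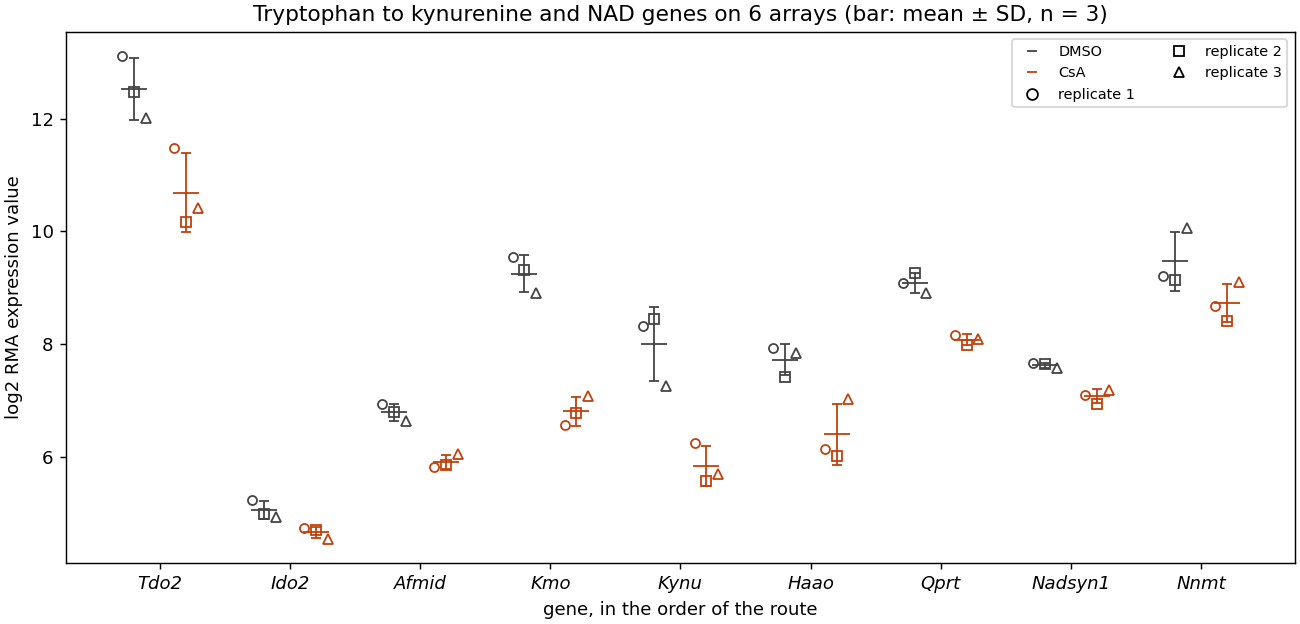
Log2 RMA expression values (vertical axis) of the 9 measured genes, in the order of the route, on the 3 DMSO and 3 CsA arrays; symbols are single arrays, marked by replicate number, and bars are mean ± SD. For every gene the CsA arrays lie below the DMSO arrays, most widely apart for Kmo (9.25 against 6.81) and least for Ido2 (5.06 against 4.67), and heights of different genes are not comparable because their probes differ.

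The entry of tryptophan into the route was represented by a bright and a dim gene. Tdo2, the dioxygenase that liver mainly uses, read 13.10, 12.47 and 12.01 on DMSO arrays 1 to 3 and 11.48, 10.17 and 10.41 on CsA arrays 1 to 3. The lowest DMSO array was above the highest CsA array, and array 1 was the highest of each group. Tdo2 fell 3.58-fold, by 1.84 ± 0.36 on the log2 scale (SE, adjusted p = 0.00859), from a DMSO level brighter than that of most rows (98.7th percentile). Ido2, a relative of the interferon-induced dioxygenase with weak activity on tryptophan, read 5.24, 4.99 and 4.94 in DMSO and 4.74, 4.70 and 4.55 in CsA. Its values were low in all 6 arrays, at the 27.8th percentile of rows in DMSO, where RMA compresses differences. The difference of -0.39 ± 0.12 missed the threshold (adjusted p = 0.0549) and passed with the replicate number as a block (adjusted p = 0.0187), with array weights (0.0222) and without DMSO replicate 3 (-0.45, adjusted p = 0.0486). In 12 of the 15 alternatives that kept its row Ido2 did not pass. Without DMSO replicate 1 its difference was -0.30 (adjusted p = 0.187).

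Afmid, which hydrolyses N-formylkynurenine to kynurenine, read 6.94, 6.80 and 6.63 in DMSO and 5.83, 5.85 and 6.05 in CsA. The arrays of each group lay close together, and Afmid fell 1.84-fold (-0.88 ± 0.12, adjusted p = 0.00173).

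The steps from kynurenine onward held the 2 largest falls of the route. Kmo, an outer mitochondrial membrane enzyme that commits kynurenine to the NAD branch, read 9.54, 9.32 and 8.90 in DMSO and 6.57, 6.78 and 7.08 in CsA. The gap between the groups was wider than the range within either, and Kmo fell 5.44-fold (-2.44 ± 0.19, adjusted p = 0.000109), a fall that 0.514% of all rows reached or passed. Kynu, which splits alanine from 3-hydroxykynurenine, read 8.32, 8.45 and 7.26 in DMSO and 6.24, 5.57 and 5.70 in CsA. DMSO array 3 stood below the other DMSO arrays but above all CsA arrays. Kynu fell 4.51-fold (-2.17 ± 0.31, adjusted p = 0.00184).

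Haao, which opens the ring of 3-hydroxyanthranilate, read 7.93, 7.41 and 7.84 in DMSO and 6.15, 6.02 and 7.02 in CsA. CsA array 3 was the highest of its group and came nearest to the DMSO arrays. Haao fell 2.51-fold (-1.33 ± 0.26, adjusted p = 0.00824), and between same-numbered arrays its difference was -1.78, -1.39 and -0.81.

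Qprt and Nadsyn1, the 2 genes of the route that act between quinolinate and NAD, showed smaller falls than Kmo and Kynu. Qprt, which joins quinolinate to phosphoribose, read 9.08, 9.26 and 8.91 in DMSO and 8.17, 7.98 and 8.09 in CsA. The spread within each group was small beside the distance between them, and Qprt fell 2.01-fold (-1.004 ± 0.12, adjusted p = 0.000929). Nadsyn1, the amidating synthetase that completes NAD, read 7.66, 7.64 and 7.57 in DMSO and 7.10, 6.95 and 7.19 in CsA. It fell 1.46-fold (-0.55 ± 0.11, adjusted p = 0.0088), the smallest fall among the 7 genes that passed. The 95% interval of Nadsyn1, -0.79 to -0.30, and that of Qprt, -1.28 to -0.72, did not overlap those of Kmo, -2.87 to -2.02, or Kynu, -2.87 to -1.47.

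Nnmt, which uses S-adenosylmethionine to methylate nicotinamide, read 9.21, 9.13 and 10.07 in DMSO and 8.67, 8.42 and 9.10 in CsA. Array 3 was the highest of both groups, and CsA array 3 lay just below the lowest DMSO array. The difference of -0.74 ± 0.26 did not pass (adjusted p = 0.0874). With the replicate number as a block it passed (-0.74 ± 0.11, adjusted p = 0.0027), and the same-numbered arrays differed by -0.54, -0.71 and -0.97. It also passed with array weights (adjusted p = 0.0161), without CsA replicate 3 (-0.92, adjusted p = 0.0485) and without both arrays numbered 3 (-0.62, adjusted p = 0.0129). Without DMSO replicate 3, the highest array, the difference shrank to -0.44 (adjusted p = 0.169), and leaving out any other array gave adjusted p-values up to 0.26. In the blocked fit all 9 genes were lower and 0 higher, against 12.9% and 15.8% of all rows.

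The replicates varied along the route in different ways. Between same-numbered arrays the Kmo difference was -2.96, -2.55 and -1.82. In all 7 genes that fell the pair numbered 3 had the smallest difference, by a narrow margin for Tdo2 (-1.62, -2.30 and -1.60) and a wide one for Afmid (-1.12, -0.94 and -0.58). For Nnmt that pair had the largest difference. Tdo2, Kynu (-2.88), Qprt (-1.28) and Nadsyn1 (-0.70) differed most in the pair numbered 2. The second principal component of all rows (17.3% of the variance) separated both arrays numbered 3 from the rest, and without that pair the 7 genes that fell stayed past the threshold, joined by Nnmt.

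Genes of the side branches of kynurenine and of its later breakdown were partly lower too. Among 12 other measured genes listed for kynurenine and tryptophan metabolism 4 fell, 0 rose and 8 did not pass, while 9.05% of all rows fell and 9.55% rose. Tk1, 1 of the 8 that did not pass (-0.03, adjusted p = 0.966), encodes thymidine kinase and has no part in that metabolism. The median difference of the 12, Tk1 included, was -0.40. With the replicate block 6 fell and 1 rose, against 12.9% and 15.8% of all rows. Aldh8a1, a dehydrogenase that acts after Acmsd on the way to complete oxidation, read 9.51, 9.01 and 8.59 in DMSO and 6.46, 5.82 and 5.73 in CsA. It fell 8.21-fold (-3.04 ± 0.26, adjusted p = 0.000174), a larger estimate than for any of the 9 genes of the route, though its 95% interval overlapped that of Kmo. Aadat, an aminotransferase that makes kynurenic acid, fell 3.14-fold (8.63 ± 0.31 to 6.98 ± 0.11, SD, n = 3 each, adjusted p = 0.000309). Gcdh, the glutaryl-CoA dehydrogenase, fell by 0.58 (adjusted p = 0.00839). Ddc, which decarboxylates aromatic amino acids, fell by 0.75 (adjusted p = 0.0268) and lost its call when DMSO replicate 1 (adjusted p = 0.0725) or 2 (0.0922) or CsA replicate 2 (0.103) or 3 (0.0515) was left out.

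Ido1, the interferon-induced dioxygenase, was dim and lay in the other direction. It read 4.78, 4.38 and 4.36 in DMSO and 5.20, 5.01 and 4.79 in CsA, with no overlap, and differed by 0.49 ± 0.16 without passing (adjusted p = 0.06). With the replicate block it passed (adjusted p = 0.00805), as it did with centred arrays (0.0394), without DMSO replicate 1 (0.63, adjusted p = 0.0317) and without CsA replicate 3 (0.60, adjusted p = 0.0335). In 10 of the 15 alternatives that kept its row Ido1 did not pass (adjusted p up to 0.192). Kyat3, another kynurenine aminotransferase, differed by 0.33 ± 0.11 (adjusted p = 0.0676, 0.0513 with the replicate block and 0.0347 with centred arrays). It did not pass in 13 of 16 alternatives (adjusted p up to 0.228). Kyat1, of the same activity, differed by -0.59 ± 0.26 (adjusted p = 0.17, and 0.00578 with the replicate block). Kyat1 differed by -0.29 when CsA replicate 2 was left out (adjusted p = 0.457). Dhtkd1, part of the 2-oxoadipate dehydrogenase, differed by -0.66 ± 0.21 (adjusted p = 0.064), and passed with the replicate block (0.0357), without DMSO replicate 3 (-0.81, adjusted p = 0.0366) and without CsA replicate 3 (-0.80, adjusted p = 0.0381). It did not pass in 10 of the 15 alternatives that kept its row (adjusted p up to 0.207).

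Other ways of making NAD did not move as one. Of 12 other NAD synthesis genes 2 fell, 0 rose and 10 did not pass, while 9.05% of all rows fell and 9.55% rose. Their median difference was -0.05. With the replicate block 5 fell and 1 rose, against 12.9% and 15.8% of all rows. Naprt, the first enzyme of the route from nicotinic acid, read 9.09, 9.13 and 8.97 in DMSO and 7.23, 6.83 and 7.09 in CsA and fell 4.04-fold (-2.01 ± 0.13, adjusted p = 4.92e-05). Nmrk1, the nicotinamide riboside kinase, fell 1.82-fold (-0.87 ± 0.16, adjusted p = 0.0066). The adenylyltransferase genes that act between Qprt and Nadsyn1 did not pass. Nmnat1 differed by 0.33 ± 0.12 (adjusted p = 0.0974), with all CsA arrays above all DMSO arrays. Nmnat2 differed by 0.15 (adjusted p = 0.61) and Nmnat3 by 0.17 (adjusted p = 0.464). Nampt, the rate-limiting enzyme of salvage from nicotinamide, read 9.93, 9.82 and 9.84 in DMSO and 10.46, 10.42 and 9.98 in CsA. CsA array 3 was close to the DMSO arrays, and the difference of 0.42 ± 0.14 did not pass (adjusted p = 0.0764). It passed with the replicate block (0.0313), with centred arrays (0.0499) and without CsA replicate 3 (0.58, adjusted p = 0.00881). In 11 of 16 alternatives Nampt did not pass (adjusted p up to 0.237). The nucleotidases Nt5c2 (-0.51, adjusted p = 0.0723) and Nt5e (-0.83, adjusted p = 0.0773) passed with the block (0.0177 and 0.00637), and Nt5e also without DMSO replicate 3 (-1.18, adjusted p = 0.00489). Nt5c2 did not pass in 14 of 16 alternatives (adjusted p up to 0.232) and Nt5e in 12 of 16 (up to 0.236). Nadk2, the mitochondrial NAD kinase, differed by -0.58 ± 0.37 (adjusted p = 0.355, and 0.00948 with the block). With 1 array left out it ranged from -1.004 (DMSO replicate 3, adjusted p = 0.0423) to -0.28 (DMSO replicate 1, adjusted p = 0.733).

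**Figure D2:**
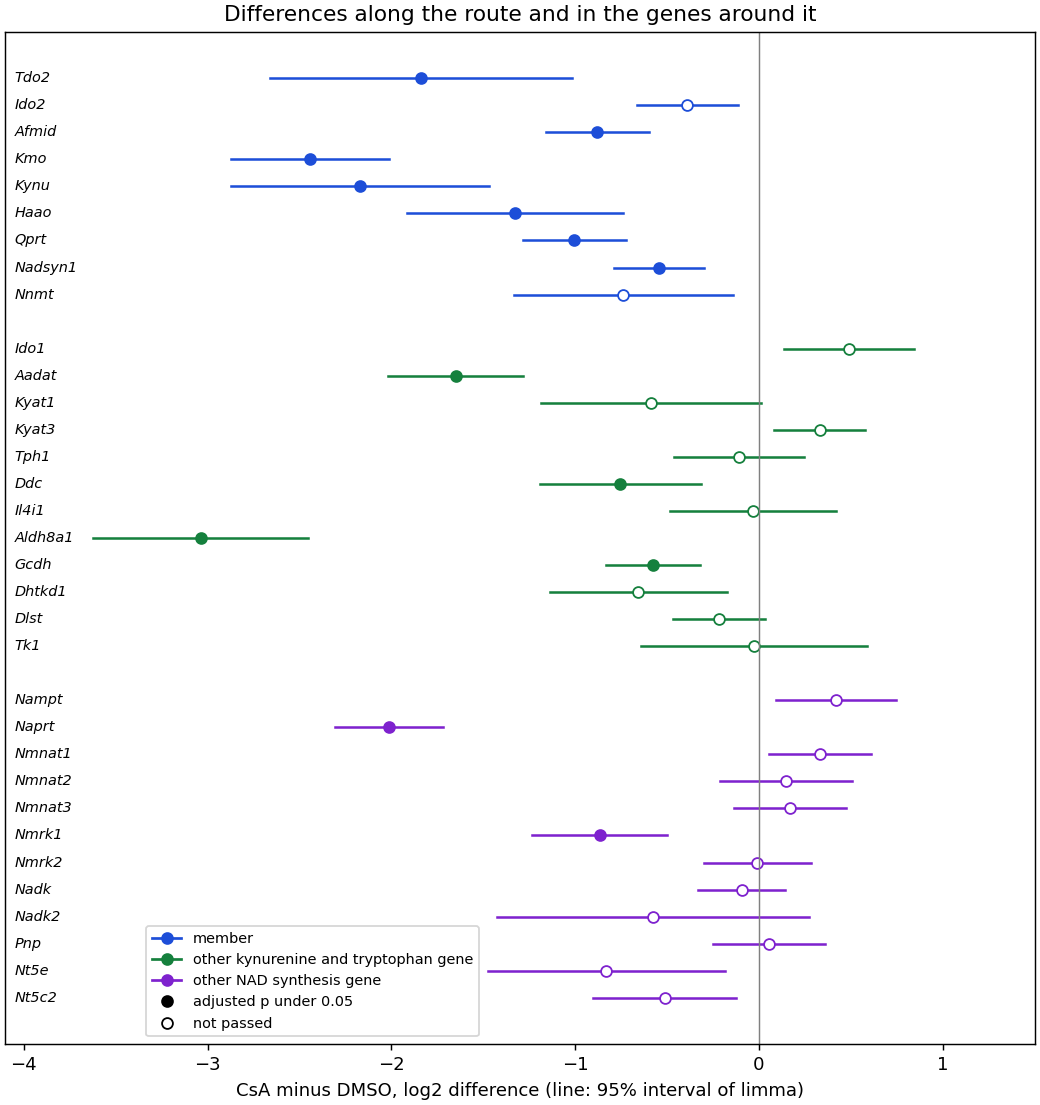
CsA minus DMSO differences on the log2 scale (horizontal axis) for the 9 genes of the route, 12 listed as other kynurenine and tryptophan genes and 12 other NAD synthesis genes. Points are the limma estimates, lines their 95% intervals, and filled points passed at an adjusted p under 0.05. Tk1, in the second set, encodes thymidine kinase and does not belong to that metabolism. Aldh8a1 at -3.04, Kmo at -2.44, Kynu at -2.17 and Naprt at -2.01 lie farthest to the left, while Ido1, Nampt and Kyat3 lie to the right of 0 with open points.

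Within-array differences between a pair of genes were compared at the branch points. Of 6 pairs planned, 4 could be formed without Acmsd, and each was tested by an exact two-sided permutation test over the arrays, whose smallest p for 3 against 3 is 0.1, so no pair could pass and the values are a description. Tdo2 against Ido2 was lower, with CsA arrays at -0.73, -2.00 and -1.61 relative to the DMSO mean and an SD of 0.39 among DMSO arrays (exact p = 0.1, adjusted p = 0.133 over the 4 pairs). Ido2 is dim, and with its differences compressed this value mostly follows Tdo2, so no fold is given. Kmo against Aadat, enzymes that compete for kynurenine, differed by -0.79, or 1.73-fold, with CsA arrays at -1.15, -0.75 and -0.48 (DMSO SD 0.03, exact p = 0.1, adjusted p = 0.133). Nampt against Nnmt was higher in CsA by 1.16, or 2.23-fold, with CsA arrays at 1.39, 1.60 and 0.48 (DMSO SD 0.54, exact p = 0.1, adjusted p = 0.133). In these 3 pairs the groups did not overlap. Kmo against Kynu overlapped between groups, with CsA arrays at -0.91, -0.04 and 0.14 and DMSO arrays at -0.03, -0.37 and 0.40 (exact p = 0.6), and no unequal change of these neighbours was detectable with 3 arrays per group.

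**Figure D3:**
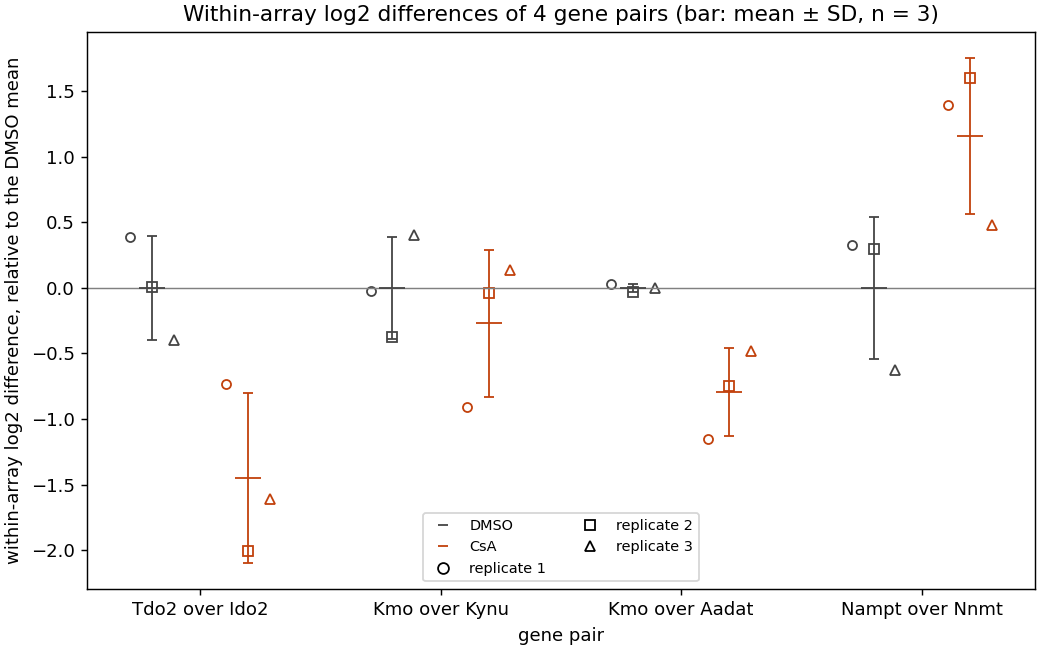
Within-array log2 differences of 4 gene pairs (vertical axis), each relative to its DMSO mean, on the 3 DMSO and 3 CsA arrays; symbols are single arrays and bars are mean ± SD. The CsA arrays lie below the DMSO arrays for Tdo2 over Ido2 and Kmo over Aadat, above them for Nampt over Nnmt, and among them for Kmo over Kynu.

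Enzymes that use NAD and those that oxidise methylnicotinamide did not move as one. Of 13 measured, 3 fell, 1 rose and 9 did not pass, while 9.05% of all rows fell and 9.55% rose. The median difference of the 13 was -0.13. The aldehyde oxidases Aox1 and Aox3, which oxidise the methylnicotinamide that Nnmt makes, fell 2.60-fold (9.94 ± 0.23 to 8.57 ± 0.09, adjusted p = 0.000313) and 2.62-fold (8.20 ± 0.40 to 6.81 ± 0.22, SD, n = 3 each, adjusted p = 0.00216). They are close paralogues that can share hybridisation, so their separate values are uncertain. Sirt1, a nuclear NAD-dependent deacetylase, rose 1.73-fold (0.79 ± 0.17, adjusted p = 0.0128), and its call was lost without CsA replicate 2 (0.73, adjusted p = 0.057). Sirt5, a mitochondrial member of that family, fell by 0.42 (adjusted p = 0.0331). It did not pass when DMSO replicate 1 (adjusted p = 0.0859), 2 (0.0938) or 3 (0.0693) or CsA replicate 2 (0.139) or 3 (0.0538) was left out. The poly(ADP-ribose) polymerase genes Parp1 and Parp2 differed by -0.30 (adjusted p = 0.0661, and 0.0407 with the replicate block) and 0.27 (adjusted p = 0.154), and Sirt2 by 0.30 (adjusted p = 0.186).

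Of 6 measured transporter genes for tryptophan, kynurenine or NAD, Slc3a2 and Slc7a5 rose (2 of 6), 0 fell and 4 did not pass, while 9.55% of all rows rose. Slc3a2, the heavy chain of the exchanger that carries large neutral amino acids, read 11.82, 12.14 and 12.32 in DMSO and 13.69, 13.63 and 13.32 in CsA and rose 2.73-fold (1.45 ± 0.16, adjusted p = 0.000536). This chain also pairs with other amino acid carriers. Its light chain for tryptophan uptake, Slc7a5, rose 1.47-fold (0.55 ± 0.12, adjusted p = 0.0164), and lost the call when DMSO replicate 1 (adjusted p = 0.0605) or 2 (0.0725) or CsA replicate 2 (0.0709) was left out. Slc25a51, the mitochondrial NAD carrier, differed by 0.47 ± 0.16 (adjusted p = 0.0714) and passed with the replicate block (0.022) and without CsA replicate 3 (0.65, adjusted p = 0.0053). It did not pass in 12 of 16 alternatives (adjusted p up to 0.234). Slc7a8 differed by -0.23 (adjusted p = 0.224) and Slc16a10, a carrier of aromatic amino acids, by 0.17 (adjusted p = 0.387).

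Of 10 measured regulators and glucocorticoid-responsive genes 5 fell, 0 rose and 5 did not pass, while 9.05% of all rows fell and 9.55% rose. Their median difference was -0.63. Hnf4a, a master regulator of hepatocyte genes, read 10.05, 9.91 and 9.56 in DMSO and 8.28, 7.95 and 8.11 in CsA and fell 3.31-fold (adjusted p = 0.000196). Ppara, the fatty acid receptor, fell 2.47-fold (adjusted p = 0.0022), and Ahr, a receptor that kynurenine can bind, fell 1.85-fold (adjusted p = 0.00584). Hydrocortisone was in the medium of both groups, and glucocorticoids are known to induce Tdo2 in rodent liver. Fkbp5 and Tsc22d3, genes that glucocorticoids induce, fell 2.25-fold (9.42 ± 0.03 to 8.25 ± 0.17, adjusted p = 0.000336) and 2.72-fold (8.98 ± 0.45 to 7.54 ± 0.55, SD, n = 3 each, adjusted p = 0.0105). Tat, a glucocorticoid-responsive gene of the same list, did not pass. It differed by -0.19 ± 0.47 (adjusted p = 0.849, and 0.525 with the replicate block), and its DMSO arrays were widely spread (11.21 ± 1.02, SD). Per1, which glucocorticoids also induce, differed by 0.39 ± 0.23 in the other direction (adjusted p = 0.306, and 0.0162 with the replicate block), and by 0.18 (adjusted p = 0.626) when CsA replicate 3, 0.215 (0.666) when DMSO replicate 1 and 0.60 (0.128) when CsA replicate 1 was left out. The glucocorticoid receptor gene Nr3c1 differed by -0.37 ± 0.13 (adjusted p = 0.0912), and passed with the block (0.0274) and without DMSO replicate 3 (-0.50, adjusted p = 0.0201). It did not pass in 12 of 16 alternatives (adjusted p up to 0.266). Cebpa differed by -0.31 (adjusted p = 0.271). Whether these regulators had a part in the fall of the route was not tested.

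**Figure D4:**
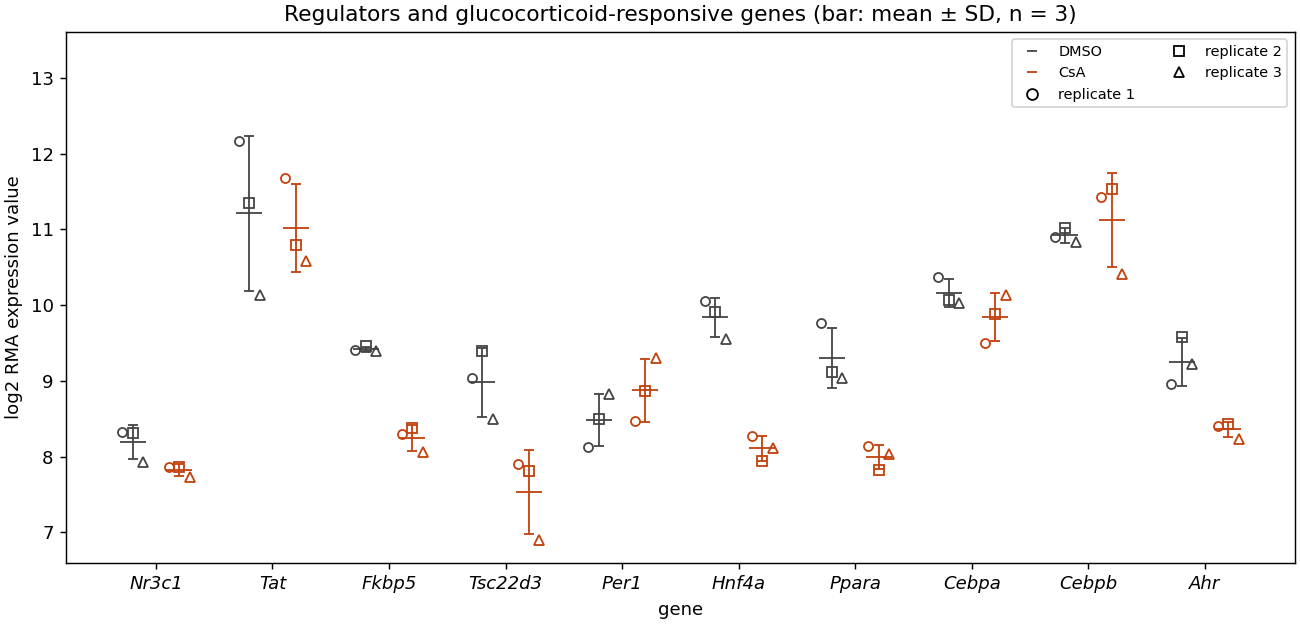
Log2 RMA expression values (vertical axis) of 10 regulators and glucocorticoid-responsive genes on the 3 DMSO and 3 CsA arrays; symbols are single arrays and bars are mean ± SD. Fkbp5, Tsc22d3, Hnf4a, Ppara, Ahr and Nr3c1 are lower in CsA with no overlap, though Nr3c1 did not pass, while the groups of Tat, Per1, Cebpa and Cebpb overlap.

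Kmo and Kynu are also expressed by macrophages, so markers of other cells were read on the same arrays. Of 50 such markers in 6 lists, 5 fell, 1 rose and 44 did not pass, while 9.05% of all rows fell and 9.55% rose. The share of these markers that fell was thus near that of all rows. Most of these markers were dimmer in DMSO than the median row, where RMA compresses differences, so this likeness does not show whether the other cells changed. The summed signal of 14 macrophage and Kupffer cell markers, as log2, was 9.70 to 10.08 in DMSO and 10.92 to 11.01 in CsA. That shift lay in Cd14, which hepatocytes also express and which rose from 9.20 ± 0.29 to 10.70 ± 0.07 (SD, n = 3 each, adjusted p = 0.000356). The other 13 summed to 8.43 to 8.92 in DMSO and 8.37 to 8.51 in CsA. The Kupffer cell genes Adgre1 and Clec4f read 4.56 to 5.06 and 5.79 to 6.05 over the 6 arrays. Vsig4 fell by 0.70 (adjusted p = 0.0311), and the leukocyte gene Ptprc read only 2.88 to 3.77 over the 6 arrays, near the bottom of the scale. The endothelial genes Stab2 (-0.52, adjusted p = 0.0365) and Fcgr2b (-0.72, adjusted p = 0.0451), the contractile gene Acta2 (-1.18, adjusted p = 0.0203) and Sox9 (-0.59, adjusted p = 0.0167) fell. Summed signals were 8.45 to 8.97 and 8.37 to 8.55 for the endothelial list, 8.68 to 9.13 and 8.25 to 8.45 for the stellate cell list, and 8.03 to 8.20 and 7.73 to 7.91 for the cholangiocyte list, in DMSO and CsA in turn. The dendritic cell list (8.43 to 8.73 and 8.37 to 8.76) and the lymphocyte list (7.68 to 7.87 and 7.73 to 7.97) overlapped between groups. So did the endothelial list and the 13 macrophage and Kupffer cell markers other than Cd14. The part of these cells in the values of the route was not tested.

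Outside the route, the genes nearest to Tdo2 in their profile over the 6 arrays, by Euclidean distance after each gene was centred on its mean, were Acsm3 (0.48 log2 units), Abcb4 (0.56) and Pbld1 (0.58). Their CsA minus DMSO differences were -2.04, -1.71 and -2.18. Nearest to Nnmt were Gsta4 (0.31), Cldn14 (0.33) and Psmb8 (0.34), with differences of -0.86, -0.65 and -0.74. All 3 of these were, as Nnmt was, highest in array 3 of each group. A likeness over 6 arrays that mostly reflects 1 contrast describes these arrays and says nothing of shared control.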

How the data were processed

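The authors deposited log2 RMA values, with R 2.11.0 as the software that the submitters' processing notes name. This method subtracts background, equalises the distributions of the arrays and combines the probes of a row, so it removes changes in total RNA and compresses dim and very bright rows. No source used here gives the array type or the probe set version. The table held 16331 rows (2.44 to 15.3, array medians 6.70 to 6.78). Of these, 15136 had 1 symbol in the platform's gene table, 0 had several and 1195 are unnamed here. A gene with several rows was read from the brightest.

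CsA was compared with DMSO in limma 3.58.1 (R 4.3.3, lmFit and eBayes, two-sided, no covariate), with Benjamini-Hochberg adjustment over all rows and a threshold of 0.05. Each log2 difference is the CsA mean less the DMSO mean, with its moderated SE. The fit was tested on simulated data. Same-numbered arrays deviated together from their group means (r = 0.398, 0.242 and 0.499, with DMSO 2 and CsA 1 at 0.221, so that pairs 1 and 2 are poorly told apart, and the other unlike numbers at -0.496 to 0.0399). The numbers, which the labels give, were taken as pairs because each r was over 0.1, and the block was an alternative. The labels do not say whether same-numbered arrays came from the same animal. Titles of the CsA arrays share the same code, while each DMSO title carries its own. The pairing was thus chosen from these same values, and calls that pass only with the block depend on it. The genes, lists and tests were chosen with earlier results of these data known, so no p-value is given for a list as a whole. The exact p-values of the gene pairs were adjusted over the pairs tested. Named were all measured genes of the route, and of each list those that passed and up to 3 more with the smallest adjusted p. Tat, Cebpb, Nmnat1, Nmnat2, Nmnat3, Kyat1, Tk1, Nadk2, Adgre1, Clec4f and Ptprc were named outside that rule, after their values were seen. Alternatives were other variance models, array weights, normalizations, filters on dim rows, a threshold of 0.01, the block, and leaving out arrays. Precision was limited by 3 arrays per group.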

Additional observations from a re-analysis of the deposited data

How the results depend on the processing

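Of the 7 genes of the route that fell, all 7 kept their direction and their call under every alternative run that retained their row; the 7 genes counted as lower became 6 with the dimmest 50% of rows left out, a setting that removes Afmid and Ido2 from the test, 9 with array weights or the replicate block, and 7 to 8 when 1 array was left out. Ido2 and Nnmt stayed negative throughout, with differences of -0.45 to -0.30 and -0.92 to -0.44. All rows that changed numbered 3037, and 5190 with array weights, 4686 with the replicate block, 1509 at the threshold of 0.01 and 1738 to 3219 with 1 array left out. In the 5 lists of related genes and regulators 17 genes passed, 30 with array weights, 28 with the replicate block, 12 at the threshold of 0.01 and 13 to 20 with 1 array left out. Kmo against Kynu ranged from -0.47 to 0.05 with 1 array left out, the sign changing without CsA replicate 1 (0.0492 in place of -0.27), and the paired value with the replicate block was -0.27. No other pair changed sign. The replicate block took the call from none of the named genes, and the values of those it added stand beside them. The setting without both arrays numbered 3 was chosen after the data had been seen (4161 rows changed). With 3 arrays per group, dim genes such as Ido1 and Ido2 allow no firm statement.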
